A study of Mus musculus with 38 samples.

Results

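Untreated omental tumors of 60577, a mouse line of high-grade serous ovarian cancer (HGSOC), were compared with the same line in monoculture, to describe what growth in the omentum and the cells of the host add to the cultured cells. The members were taken by their labels and are 8 of the 38 libraries of the series, namely 6 of its 34 tumors and 2 of its 4 cell line libraries. This choice, the gene lists and the tests were made with earlier results of these data known. The tumors grew in female wild-type FVB mice, which were 8 to 9 weeks old when 10 to the power of 7 cells were injected into the peritoneal cavity. From day 21 the mice received 3 weekly intraperitoneal doses of vehicle (Kolliphor EL, ethanol, water and PBS) and no chemotherapy. The 3 TP1 controls were collected 1 day after the last dose (day 36) and the 3 TP2 controls 7 days after it (day 42). CL_60577 was grown alone, with 2 replicates, in DMEM:F12 medium with 4% serum, insulin, transferrin, selenium, hydrocortisone at 100 ng/ml and epidermal growth factor (EGF) at 20 ng/ml. The labels give the line's genotype as FVB and name no engineered allele, and they do not say that the 2 replicates were separate cultures, so p-values measure the spread between these libraries. A whole tumor holds the cancer cells together with every host cell in it, so that fewer cells of a type and less RNA per cell cannot be told apart. Tumors and line were also sequenced in separate runs and deposited as separate tables, so a difference between the runs and a difference between tumor and line cannot be told apart in any value below.

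The omentum is a fatty fold of the peritoneum that holds blood and lymphatic vessels, fibroblasts, adipocytes, a mesothelial surface and milky spots, which are clusters of macrophages and lymphocytes. It is the usual site to which HGSOC spreads. Cells in culture divide in a medium that supplies hormones and growth factors but little cholesterol, and the SREBP2 factor switches on the genes of cholesterol synthesis when sterols in the cell are low. Interferon-stimulated genes are switched on by ISGF3, a complex of transcription factors that binds their promoters.

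The promoters of 3 genes lower in every tumor than in both line libraries are printed to show what such control regions look like, each from 250 bases before to 50 bases after the start site (RefSeq sequence, GRCm38.p6). Idi1 makes an isoprenoid precursor of cholesterol, Hmgcs1 catalyzes an early step of the same pathway, and Ifit1 is an interferon-stimulated gene. Capitals mark CCAATCA, a box to which NF-Y binds, read on the other strand in Idi1, the letters TCACNCCAC of a sterol regulatory element in Hmgcs1, and 2 matches of the interferon-stimulated response element (GAAA, any 2 bases, GAAA), read on the other strand in Ifit1.
Idi1, chr13:8885356-8885655, forward strand: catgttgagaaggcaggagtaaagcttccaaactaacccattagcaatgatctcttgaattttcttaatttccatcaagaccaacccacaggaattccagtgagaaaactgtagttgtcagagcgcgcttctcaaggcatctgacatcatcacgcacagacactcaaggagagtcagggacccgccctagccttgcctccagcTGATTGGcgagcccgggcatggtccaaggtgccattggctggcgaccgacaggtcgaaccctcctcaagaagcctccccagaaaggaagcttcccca
Hmgcs1, chr13:119690101-119690400, forward strand: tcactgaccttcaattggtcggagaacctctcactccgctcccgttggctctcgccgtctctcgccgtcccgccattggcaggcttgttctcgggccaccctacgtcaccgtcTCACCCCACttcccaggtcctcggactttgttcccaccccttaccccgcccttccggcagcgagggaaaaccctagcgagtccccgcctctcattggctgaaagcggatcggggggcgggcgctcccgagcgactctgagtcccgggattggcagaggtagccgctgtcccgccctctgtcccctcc
Ifit1, chr19:34640639-34640938, forward strand: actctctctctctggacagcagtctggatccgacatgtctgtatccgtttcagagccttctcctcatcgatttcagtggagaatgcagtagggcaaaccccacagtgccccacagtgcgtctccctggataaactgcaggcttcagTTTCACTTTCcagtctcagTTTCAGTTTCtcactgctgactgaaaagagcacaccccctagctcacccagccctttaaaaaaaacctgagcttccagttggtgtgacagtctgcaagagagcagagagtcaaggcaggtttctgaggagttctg
The marked letters begin 47 bases before the start site in Idi1, 137 before it in Hmgcs1, and 104 and 85 before it in Ifit1. The promoters of Ccnb1 and Asns, also lower in every tumor, were read too. Each held 0 matches to the letters sought in it, and they are not printed. Searched on both strands, CCAATCA was in 9 of the 12 promoters found for 20 cholesterol genes (75.0%) against 9.0% of 27025 promoters of the same length. It was not particular to this list, being also in 6 of 8 MHC class II promoters (75.0%), 7 of 13 of class I (53.8%), 10 of 19 of the ATF4 and serine synthesis list (52.6%) and 8 of 16 mitosis promoters. The response element was in 10 of 15 promoters of interferon-stimulated genes (66.7%) against 3.99% of all, and TCACNCCAC in 1 of 12 cholesterol promoters (8.33%) against 1.44%. A match describes the letters in the window and is not a measured binding site. The levels of these genes are given with their groups below. In GRCm38 with GENCODE M21, the genes named most below lie as follows: Lyz2 on chromosome 10, 117277331 to 117282321, reverse strand, Fdps on chromosome 3, 89093588 to 89101959, reverse strand, Oas3 on chromosome 5, 120753098 to 120777661, reverse strand and Zbtb16 on chromosome 9, 48654297 to 48836222, reverse strand.

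Levels are counts-per-million (CPM) after scaling by TMM, which sets libraries to a common level through the bulk of their genes. The test was edgeR's quasi-likelihood test (two-sided), the source of every adjusted p given here. Genes with a Benjamini-Hochberg adjusted p under 0.05 whose level also changed by more than 1 on the log2 scale were called higher or lower. Fold changes are tumors over line, on the log2 scale, with their standard error. Of 15808 genes tested, 4099 (25.9%) were called higher in tumors and 1525 (9.65%) lower, together 5624 (35.6%), and the median log2 fold change was 0.04. With library totals in place of TMM the lower calls numbered 1005 and the median was 0.21, and with upper quartile scaling 901 and 0.27, so that the share of calls that were higher, 72.9% with TMM, was 81.9% and 84.0%. The groups did not overlap in 5703 genes that were higher in every tumor (36.1%) and 5355 that were lower (33.9%). Of the 5624 genes called, 5488 had groups that did not overlap. Every count of list members below is to be read against these shares of all tested genes. In the plot of levels in tumors against levels in the line, the called genes form an uneven cloud, with a column of genes at or near 0 counts in the line.

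**Figure D1:**
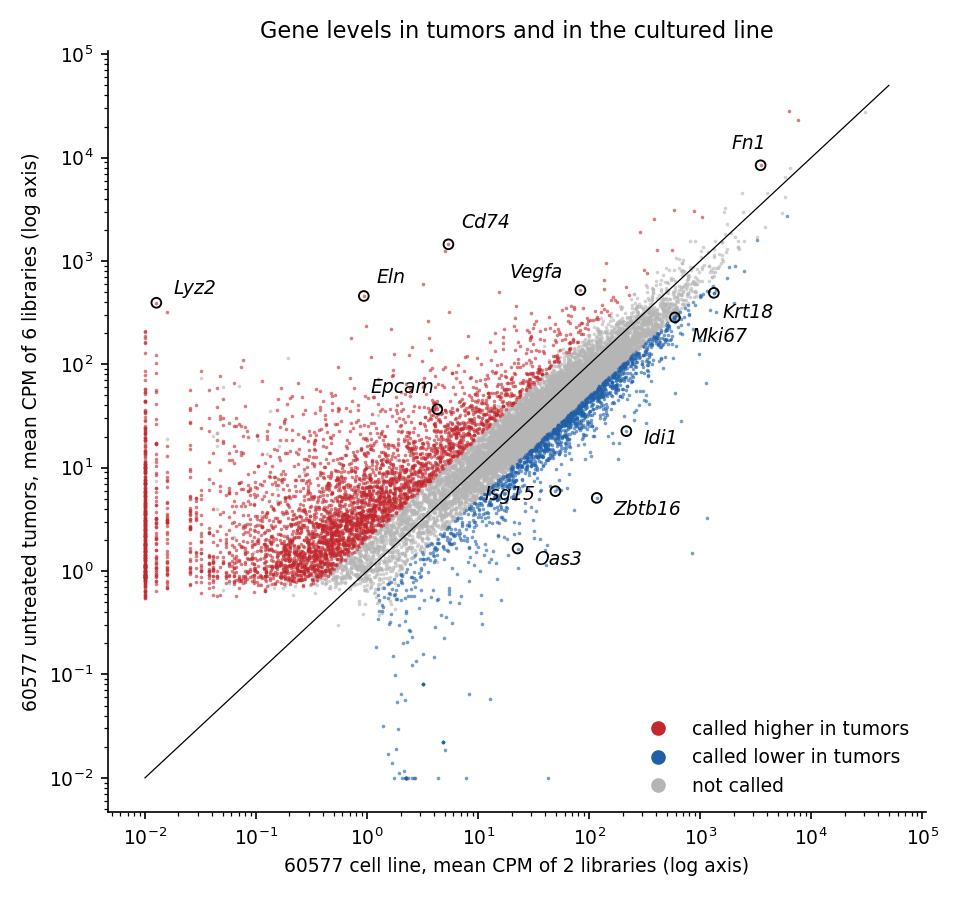
Mean CPM of each of 15808 tested genes in the 2 libraries of the 60577 line (x axis, log scale) and in the 6 untreated tumors (y axis, log scale), with values under 0.01 drawn at 0.01 and a line of equal level. Red genes were called higher in tumors (4099) and blue ones lower (1525); Lyz2, Cd74 and Eln lie far above the line of equal level, and Idi1, Oas3 and Zbtb16 below it.

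Library totals were 22314684 to 31177747 counts in tumors and 35363854 and 42461995 in the line, and 14657 to 15309 genes reached 1 CPM in a tumor against 12728 and 12759 in the line. Correlations of log2 CPM were 0.939 to 0.990 between tumors, 0.988 between the line libraries and 0.819 to 0.868 between tumor and line. TP2 control 2 (mean correlation of 0.950 with the other tumors) and TP2 control 1 (0.957) stood apart, the first with high levels of hypoxia-induced genes and the second with high levels of pancreatic genes. Without both, 5866 genes were called, and the macrophage, MHC class II, complement and hypoxia lists described below held the same counts of higher genes (17, 11, 14 and 11). One mitochondrial gene, mt-Nd3, had 0 counts in 26 of the 34 tumors of the series and at most 152.12 in the others, but 584.96 to 1600.8 in the 4 line libraries. Another, mt-Atp6, reached 36.5 to 97.9 CPM in tumors and 1079 and 1172 in the line, whereas mt-Co1 overlapped, with 3950.5 to 4988 CPM in tumors and 3597 and 4459.6 in the line. The mitochondrial genes thus did not move together.

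Genes of white blood cells were higher in every tumor than in the line. All 8 genes of a list shared by leukocytes and all 17 genes of a monocyte and macrophage list were called higher, where 25.9% of all tested genes were. The median log2 fold change was 7.31 for the leukocyte list and 8.72 for the macrophage list, with genes that had 0 counts in the line set at their lower bound, against 0.04 over all genes tested. The lower bound is the fold against a floor of 3 counts in each line library. The leukocyte list summed to 203 to 412 CPM in tumors and 1.71 and 2.28 in the line, and the macrophage list to 1113 to 2202 and 15.5 and 24.8.

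Lyz2, the lysozyme gene of macrophages and granulocytes, had 305, 341 and 602 CPM in the lowest, median and highest tumor and 0 and 1 count in the line libraries. C1qa, C1qb and C1qc encode the chains of C1q, the first component of the classical complement pathway, which tissue macrophages make. C1qa had 77.7, 177 and 261 CPM in tumors and 0 counts in both line libraries, at least 1939.7-fold higher, with C1qb at least 1882-fold and C1qc at least 1508-fold higher. Adgre1, which encodes the macrophage surface protein F4/80, had 37.0, 53.1 and 83.0 CPM in tumors and no count in the line, at least 636-fold higher. Csf1r, the receptor of macrophage colony-stimulating factor, had 143, 254 and 315 CPM in tumors and 0.476 and 1.49 in the line (log2 fold change 7.85 ± 0.62, adjusted p = 4.84e-05). The smallest differences of the list were in Mertk (1.67 ± 0.29), a receptor for the uptake of dying cells, and in Cd14 (2.15 ± 0.47), a receptor of bacterial lipopolysaccharide, both of which the line itself expressed. Mertk had 5.01 and 7.64 CPM in the line libraries and Cd14 had 7.64 and 11.2. The macrophage scavenger receptor Mrc1 had 38.3, 128 and 145 CPM in tumors and 0.127 and 0.0253 in the line. None of these genes overlapped between tumors and line.

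Lymphocyte genes were also higher but at lower levels. A gene near 0 in the line entered the test only where tumors reached the limit of 1 CPM, which by itself favors calls toward tumors. Counts among tested genes are therefore not a measure of the whole lists, which held 11 T cell, 9 B cell, 10 plasma cell, 9 dendritic cell and 11 neutrophil genes. Of 9 T cell genes tested 7 were called higher, with Cd3e, part of the T cell receptor complex, at 1.84, 3.44 and 5.03 CPM in tumors and 0.0951 and 0.0759 in the line (3 counts in each, adjusted p = 1.90e-04). Foxp3, the factor that defines regulatory T cells, had 0.630, 2.40 and 4.0 CPM in tumors and 0.0317 and 0.0759 in the line (1 and 3 counts, adjusted p = 0.00219). Cd8a, of cytotoxic T cells, was too low for the test, with 0.0994 to 2.23 CPM in tumors and 0 in the line, as were all 9 genes of a natural killer and cytotoxic list, which summed to 0.364 to 4.53 CPM in tumors and 1.14 and 1.04 in the line. All 8 B cell genes tested were called higher. The list summed to 6.47 to 34.4 CPM in tumors and 0.0634 and 0.405 in the line. In a fit of all 38 libraries 4 of the 9 then tested were called. All 6 plasma cell genes tested were called higher too, with Igkc, the constant part of the kappa light chain, at 3.25, 46.9 and 214 CPM against no count in the line (at least 819-fold higher, or 483-fold without TP2 control 3). Tumors differed widely in this list, from 12.1 CPM in TP2 control 2 to 549 in TP2 control 3, and 2 of its 6 calls were left without line replicate 1 or without line replicate 2, and 0 with limma-voom. Of 8 dendritic cell genes tested 7 were called higher, such as Itgax at 11.8, 30.3 and 36.2 CPM in tumors and 0 and 1 count in the line, and of 7 neutrophil genes 5, such as Csf3r, the receptor of granulocyte colony-stimulating factor, at 6.54, 14.9 and 25.1 CPM against no count (at least 174-fold higher). For mast cells, Kit and Hdc were the only list members tested of 8 and both were called higher (2.98 ± 0.39 and 2.61 ± 0.25), while Cpa3, Mcpt4 and Tpsb2, which define the cell type, were too low for the test.

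**Figure D2:**
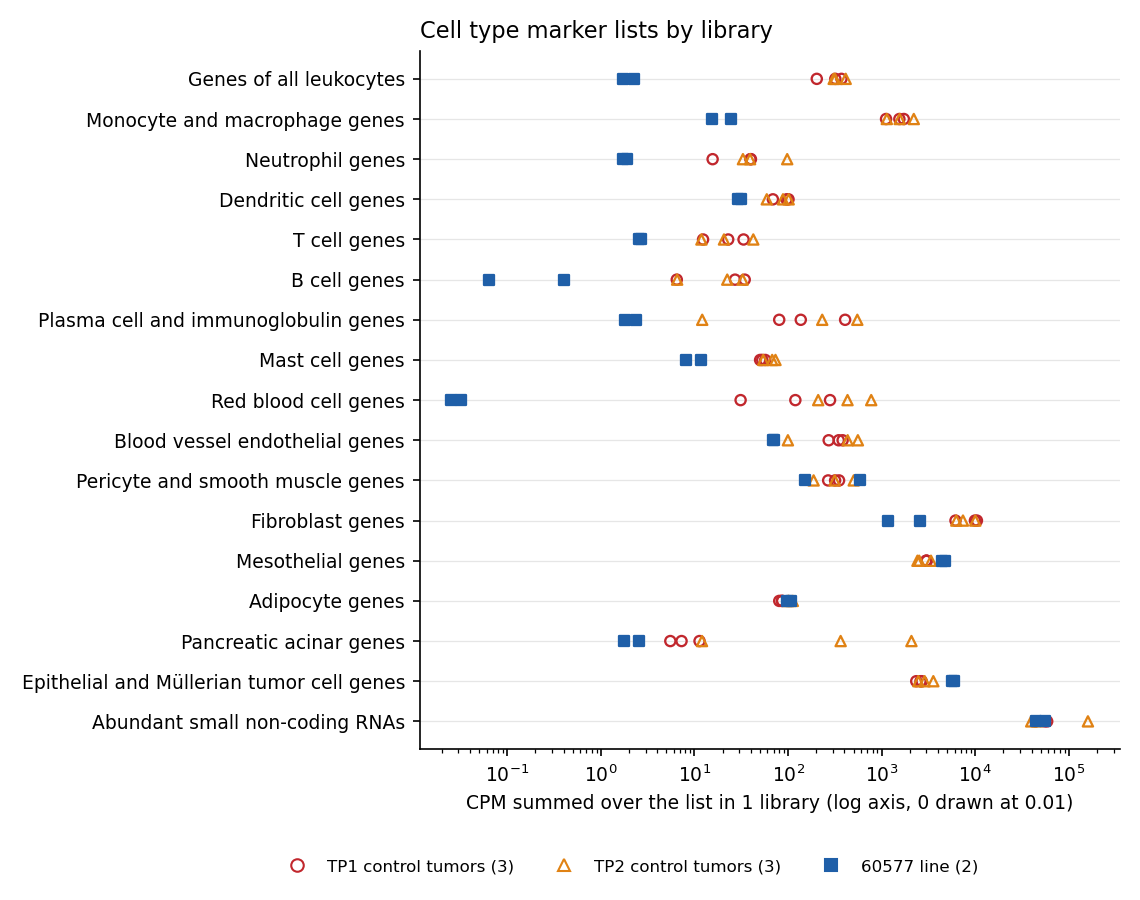
CPM summed over each list of cell type markers (rows) in each library (x axis, log scale), with circles for the 3 TP1 tumors, triangles for the 3 TP2 tumors and squares for the 2 line libraries. Leukocyte, macrophage, B cell, plasma cell and red blood cell lists lie far to the right of the squares in all 6 tumors, the pancreatic list is highest in TP2 control 1 (2078 CPM), and the pericyte and adipocyte sums of tumors and line overlap.

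Genes of antigen presentation by MHC class II were higher in tumors than in the line, as the leukocyte genes were. Of 12 genes 11 were called higher (median 7.41 at the lower bound), and the list summed to 859 to 3495 CPM in tumors and 27.6 and 40.7 in the line. Cd74, the invariant chain that escorts class II molecules, had 474, 1591 and 2111 CPM in tumors and 4.41 and 6.4 in the line (8.06 ± 0.81, adjusted p = 1.09e-04). H2-Aa, the alpha chain of the class II molecule I-A, had 46.8, 197 and 272 CPM in tumors and no count in the line, at least 2107-fold higher. Ciita, the factor that switches class II genes on, had 25.3, 97.3 and 143 CPM in tumors and 0.0951 and 0.0506 in the line, 3 and 2 counts. TP2 control 2 was the lowest tumor for Cd74, H2-Aa and Ciita, and it also had the lowest endothelial, plasma cell and dendritic cell sums. Ctsh, a lysosomal protease, was the member not called (0.73 ± 0.26), though it was without line replicate 2 (1.05, adjusted p = 0.0317). Leukocyte genes rose in the same tumors, and their part in the class II difference was not tested.

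Class I presentation, which most cells carry out, was expressed in the line and higher in tumors. Of 15 genes 10 were called higher and none lower (median 1.62). H2-D1, a classical class I heavy chain, had 869, 1186 and 1845 CPM in tumors and 382 and 440.1 in the line (1.62 ± 0.29, adjusted p = 0.00143). Tap1, a chain of the transporter that loads class I molecules with peptide, had 48.3, 80.8 and 115 and 15.7 and 13.0 (2.51 ± 0.41, adjusted p = 0.00101). Nlrc5, which switches class I genes on, had 27.4, 56.6 and 96.2 CPM in tumors and 2.19 and 2.66 in the line (4.59 ± 0.53, adjusted p = 1.98e-04), and the immunoproteasome subunits Psmb8 (2.84 ± 0.42) and Psmb9 (3.23 ± 0.45) rose with them. Tapbp (-0.04 ± 0.15), Erap1 (0.14 ± 0.18) and Calr (-0.52 ± 0.15) were not called. The leukocyte genes above moved in the same direction, and their part was not tested.

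Interferon-stimulated genes went the other way. Of 20 genes 12 were called lower in tumors, where 9.65% of all tested genes were, and 2 higher, with a median of -1.37. Oas3, which makes 2-5A, the activator of RNase L, had 1.07, 1.43 and 2.77 CPM in tumors and 16.7 and 28.6 in the line (-3.81 ± 0.31, adjusted p = 5.05e-05). Isg15, a ubiquitin-like modifier, had 3.49, 5.58 and 9.02 and 62.0 and 37.4 (-3.09 ± 0.27, adjusted p = 7.00e-05). Ifit1, whose promoter is printed above and whose product binds foreign RNA, had 1.49, 2.13 and 3.07 and 19.3 and 15 (-3.0 ± 0.25, adjusted p = 5.63e-05), and Usp18, which removes Isg15 from proteins, fell by 2.84. In these 4 genes every tumor lay below both line libraries. Irf1 (0.18 ± 0.25) and Oasl2 (0.01 ± 0.16), members of the same list, were not called. The 2 called higher were Gbp2, a guanylate-binding protein (1.3 ± 0.31, adjusted p = 0.00679), and Cxcl9, a chemokine that draws T cells (at least 37.9-fold higher). Both calls were lost without line replicate 1 (Gbp2 1.20, adjusted p = 0.057, and Cxcl9 adjusted p = 0.0860), and that of Cxcl9 also without line replicate 2 (adjusted p = 0.0918). The fit of all 38 libraries called 7 of the list lower. The list summed to 325 to 653 CPM in tumors and 625.04 and 567 in the line, so the sums overlap where most members do not. Ifit3 was called lower (-1.27 ± 0.44), but not without line replicate 1 (-0.82, adjusted p = 0.26), TP1 control 1 (-1.15, adjusted p = 0.0625) or TP1 control 3 (-1.3, adjusted p = 0.0532).

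**Figure D3:**
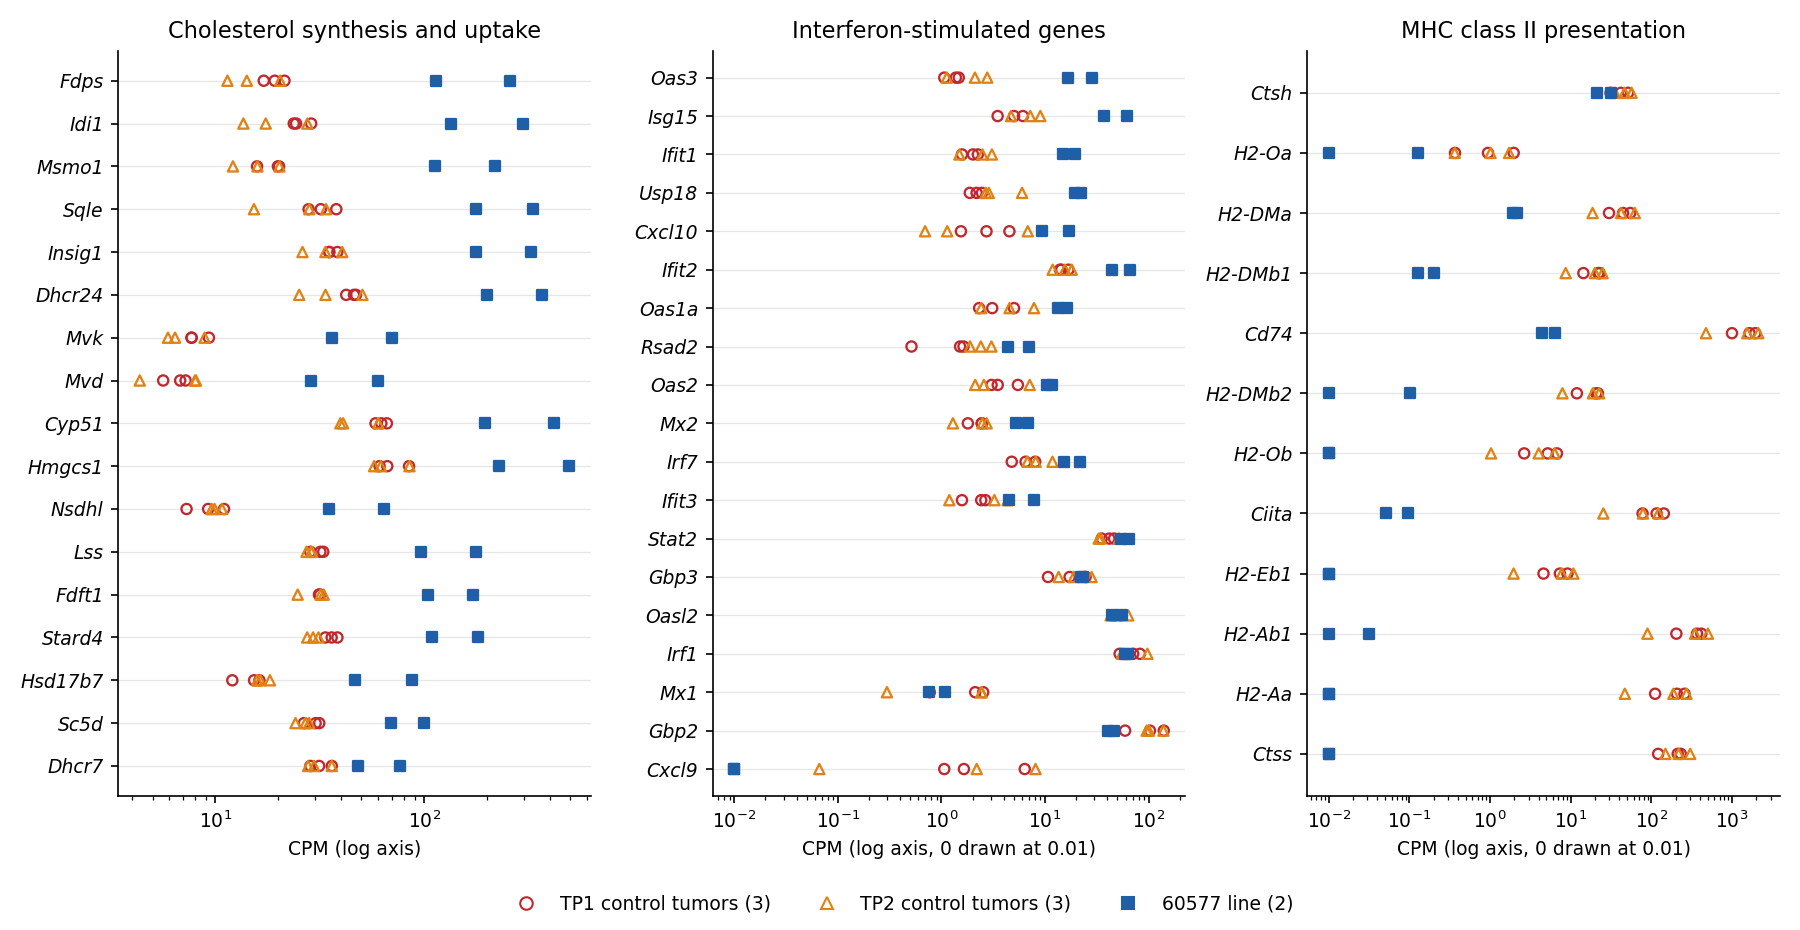
CPM (x axes, log scale, 0 drawn at 0.01) of tested genes of the cholesterol list (left, 17 of 19 genes), the interferon-stimulated list (middle, 19 of 20) and the MHC class II list (right, 12), with circles for TP1 tumors, triangles for TP2 tumors and squares for the 2 line libraries. All 17 cholesterol genes shown are lower in every tumor than in the line, the interferon-stimulated genes from Oas3 to Ifit3 were called lower, and 11 of 12 class II genes are higher in every tumor.

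Complement genes were high in tumors beyond C1q. Of 16 genes 14 were called higher (median 4.46 at the lower bound), and the list summed to 5729.7 to 8469.9 CPM in tumors and 2384 and 3513 in the line. C4b, the C4 component, had 254, 286 and 446 CPM in tumors and 2.50 and 8.50 in the line (5.83 ± 0.53, adjusted p = 7.79e-05), and Serping1, the inhibitor of C1, had 194, 262 and 335 and 2.19 and 4.91 (6.16 ± 0.36, adjusted p = 2.02e-05). C3, the central component, was among the most abundant genes of both, with 3468, 4615 and 5594 CPM in tumors and 1919 and 2836 in the line. It was higher in every tumor, but at 0.93 ± 0.21 it was not called, and it was called without TP1 control 1 (1.00, adjusted p = 0.00656) or line replicate 2 (1.23, adjusted p = 0.00721). Cd55, which protects cells from complement, was not called either (-0.23 ± 0.09).

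Chemokines and cytokines divided. Of 23 chemokine genes tested 11 were called higher and 3 lower, 7 were higher with limma-voom, and 1 of the 22 then tested was lower without line replicate 1. Ccl6 had 16, 36 and 173 CPM in tumors and no count in the line (at least 679-fold higher, or 411-fold without TP2 control 2), and Cx3cl1, the ligand of the macrophage receptor Cx3cr1, had 22.1, 47.4 and 58.7 and 5.55 and 5.59 (2.98 ± 0.39, adjusted p = 3.28e-04). Ccl2, which recruits monocytes, was a chemokine that the line made at higher levels, with 21.4, 38 and 56.3 CPM in tumors and 129.9 and 146 in the line (-1.88 ± 0.28, adjusted p = 6.37e-04). Its receptor Ccr2 was at 13.0 to 55.1 CPM in tumors and at 0 counts in the line. The other 2 called lower were Ccl20, with 0 to 0.337 CPM in tumors and 2.76 and 2.33 in the line, and Cxcl10 (-2.18 ± 0.72), and the Cxcl10 call was lost without line replicate 1 (-1.70, adjusted p = 0.176), TP1 control 1 (-2.01, adjusted p = 0.0538) or TP1 control 3 (-2.16, adjusted p = 0.0557). Of 18 cytokine genes 12 were called higher and 3 lower, and the lower calls were 1 with upper quartile scaling, library totals or glmTreat, which tests against a log2 fold change of 1, and 5 of the 21 genes tested with no filter or with filterByExpr, the filter of edgeR. Csf1, macrophage colony-stimulating factor, had 160.1, 179 and 190.1 CPM in tumors and 602 and 384 in the line (-1.49 ± 0.15, adjusted p = 9.84e-05), so that the ligand was lower and the receptor Csf1r higher in tumors. Il1b, an inflammatory cytokine, was at 6.92 to 21.4 CPM in tumors and 0 counts in the line (at least 161-fold higher), and Il10, which restrains inflammation, at 1.99 to 3.71 and 0 (at least 30.7-fold higher). Tgfb1 was higher in tumors (1.13 ± 0.17) and Tgfb2 lower (-1.10 ± 0.16), both ligands of the TGF-beta pathway.

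Most genes of the fibroblast and fibrillar collagen lists were higher in tumors, and the line itself already expressed collagen. Host fibroblasts and cancer cells cannot be told apart in a whole tumor, and the part of each in these and the other matrix genes was not tested. Of 13 fibroblast genes 11 were called higher and 1 lower (median 4.55), and of 11 fibrillar collagens 8 higher and 1 lower (median 2.43). Col1a1, the main chain of type I collagen, had 2172, 3117 and 4116 CPM in tumors and 911 and 258 in the line (2.40 ± 0.52, adjusted p = 0.00419). Col3a1, of type III collagen, had 1788, 2651 and 3288 and 714 and 52.8 (2.74 ± 0.88, adjusted p = 0.0242). The 2 line libraries thus differed from each other more than the tumors did, and both stayed below every tumor. Without line replicate 1 the change of Col3a1 was 5.59, adjusted p = 6.65e-04. Lum, a proteoglycan of collagen fibrils, had 8.48, 23.7 and 32.3 CPM in tumors and no count in the line (at least 258-fold higher), and Pdgfrb, a receptor of fibroblasts and pericytes, had 44.7, 90.7 and 116 and 2.28 and 5.09 (4.55 ± 0.50, adjusted p = 1.60e-04). Dcn, another proteoglycan of the list, overlapped between the groups, with 407 to 617 CPM in tumors and 436 and 557 in the line (0.01 ± 0.16). Thy1 was lower in tumors, with 7.69, 11.6 and 20.1 CPM against 70.3 and 65.7 (-2.48 ± 0.30, adjusted p = 2.27e-04), and so was the collagen gene Col11a1, with 0.861, 3.13 and 7.35 against 128 and 17 (-4.38 ± 0.64, adjusted p = 5.90e-04), or -2.28, adjusted p = 0.0108 without line replicate 1.

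Among 19 matrix glycoproteins and proteoglycans 15 were called higher and none lower (median 2.81). Eln, elastin, had 106, 545 and 569 CPM in tumors and 0.983 and 0.886 in the line (8.93 ± 0.91, adjusted p = 1.15e-04). Fn1, fibronectin, was the most abundant of the list in both groups, with 6042, 7363 and 14048 CPM in tumors and 3921 and 3079 in the line (1.26 ± 0.32, adjusted p = 0.00907), and its call was lost without line replicate 2 (1.09, adjusted p = 0.0774). Thbs2 (7.83 ± 0.75) and Bgn (2.74 ± 0.31), secreted proteins of the matrix, rose as well, while Sparc (-0.03 ± 0.20) and Fbln2 (0.09 ± 0.26) were not called. Basement membrane genes gave no common direction, with 5 of 20 called higher, 3 lower and a median of 0.00, and without line replicate 2 the counts were 3 and 0. Col4a1 (-0.28 ± 0.28) and the laminin chain Lamc1 (-0.67 ± 0.13), abundant in both, were not called, and Lama4, a laminin chain of vessel walls, rose by 2.06 ± 0.24. Of 14 genes that cross-link or modify collagen 4 were called higher and 1 lower, near the 25.9% and 9.65% of all tested genes, and without line replicate 2 the counts were 2 and 2. Lox, lysyl oxidase, had 188, 252 and 402 CPM in tumors and 371 and 155 in the line (0.00 ± 0.36), so the groups overlapped, whereas Loxl1 was higher (2.20 ± 0.33, adjusted p = 6.11e-04) and Loxl4 lower (-2.38 ± 0.27, adjusted p = 1.70e-04).

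Of 18 matrix proteases and inhibitors 7 were called higher and none lower. Mmp2, a gelatinase, had 102, 248 and 276 CPM in tumors and 25.3 and 8.68 in the line (3.70 ± 0.59, adjusted p = 8.37e-04), and Mmp12, an elastase of macrophages, had 3.97, 17 and 77.0 and 0.0634 and 0.0506. Of 17 integrin subunits 10 were called higher and 2 lower. Itga3, the laminin receptor subunit of epithelial cells, was abundant in the line and fell, with 295, 333 and 366 CPM in tumors and 1112 and 1329 in the line (-1.88 ± 0.11, adjusted p = 2.12e-05), as did Itga2, a collagen receptor subunit (-2.19 ± 0.37). Itga9 had 29.5, 46.9 and 62.7 CPM in tumors and 0 and 4 counts in the line (adjusted p = 3.86e-05), while Itgb1 (-0.46 ± 0.11) and Itgav (-0.17 ± 0.10), the subunits shared by many integrins, were not called. Without TP2 control 2, 2 protease genes were also called lower.

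Vessel genes were higher, with a wide spread between tumors. Of 12 blood vessel endothelial genes 10 were called higher (median 4.70 at the lower bound), and the list summed to 99.5 to 557 CPM in tumors and 70.3 and 69.5 in the line. Pecam1, the adhesion protein CD31, had 10.6, 32.2 and 77.2 CPM in tumors and 0.602 and 0.481 in the line (5.99 ± 0.91, adjusted p = 6.96e-04). Cdh5, the cadherin of endothelial junctions, had 0.696, 21.2 and 52.2 CPM in tumors and no count in the line (at least 265-fold higher), with the lowest value in TP2 control 2. Kdr, the receptor of VEGF, was expressed by the line too, at 27.7 and 28 CPM. Without line replicate 1 there were 4 calls, without line replicate 2 there were 5, and with limma-voom 2. Of 10 pericyte and smooth muscle genes 7 were called higher and 2 lower, and 3 were higher with limma-voom. Cspg4, the pericyte proteoglycan NG2, had 56.8, 73.0 and 84.5 CPM in tumors and 0.793 and 0.607 in the line (6.71 ± 0.23, adjusted p = 6.31e-06). Acta2, smooth muscle actin, was lower in tumors, with 35.6, 57.5 and 75.0 CPM against 422 and 101 (-2.25 ± 0.46, adjusted p = 0.0029), but not without line replicate 1 (-0.89, adjusted p = 0.0854). Red blood cell genes were present in every tumor, with Hba-a1, alpha globin, at 21.8, 169.5 and 539.6 CPM against no count in the line (at least 2469-fold higher).

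Genes of adipocytes, which fill the healthy omentum, were mostly higher in tumors where tested, but several were low and their sum overlapped. Adipoq, which encodes adiponectin and defines the cell type, was at 0.0368 to 1.14 CPM in tumors and 0.222 and 0 in the line, too low for the test, as was the leptin gene Lep. Of 7 adipocyte genes tested 4 were called higher (median 3.93 at the lower bound), and 5 were higher in every tumor than in the line. Among those called was Plin1, which coats lipid droplets, at 0.698, 1.95 and 3.04 CPM against no count (at least 21.4-fold higher). With limma-voom 1 was called higher. Pparg, the factor that drives adipocyte formation, was called lower (-1.02 ± 0.22), but not without line replicate 1 (-0.78, adjusted p = 0.0569), TP1 control 1 (-0.98), TP2 control 1 (-0.95) or TP2 control 3 (-0.94), nor with any other scaling, DESeq2, limma-voom, glmTreat or the replicate block. The summed list overlapped, with 80.5 to 112 CPM in tumors and 98.3 and 108 in the line. Pancreatic enzyme genes summed to 2078 CPM in TP2 control 1, 364 in TP2 control 3 and 5.52 to 12 in the other 4, against 2.57 and 1.75 in the line. Cela1, an elastase, was the 1 gene called of 11 (5.68 ± 1.64), and its call was lost without line replicate 1 (6.01, adjusted p = 0.0785) or 2 (5.37, adjusted p = 0.0919). DESeq2's Wald test called 6 of the 11, limma-voom 0, and edgeR's test 2 without TP2 control 2.

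The line carried mesothelial and epithelial genes of the tumor cell itself, and these moved in both directions. Wt1, a factor of mesothelium and of serous ovarian tumors, had 380.1 to 453 CPM in tumors and 454 and 426 in the line (-0.07 ± 0.09), and Muc16, which encodes CA125, had 217 to 533 and 234 and 309 (0.44 ± 0.33). Neither was called, and both overlapped. Of 12 epithelial genes tested 3 were called higher and 5 lower (median -0.24), where 25.9% and 9.65% of all tested genes were, so the higher count is near the share of all genes. Krt18, a keratin of simple epithelium, had 394, 446 and 778 CPM in tumors and 1245 and 1410.5 in the line (-1.45 ± 0.21, adjusted p = 5.46e-04), and Krt8 (-1.44 ± 0.20), Krt19 (-1.36 ± 0.20) and the desmosome gene Dsp (-1.13 ± 0.09) fell with it. Epcam, the epithelial adhesion protein, rose, with 23.3, 33.2 and 57.7 CPM in tumors and 3.52 and 5.06 in the line (3.06 ± 0.30, adjusted p = 9.45e-05), as did the protease inhibitor Spint2 (1.55 ± 0.18) and the factor Elf3 (1.56 ± 0.29). Cdh1, E-cadherin, was not called (0.44 ± 0.25). Pax8, a marker of many serous tumors, was too low for the test, at 0.398 to 0.981 CPM in tumors and 0.285 and 0.304 in the line. Upper quartile scaling left 3 genes called lower, and a fit of all 38 libraries left 0. The fit of 17 libraries described below called 0 of the 12 higher and 0 lower. Of 8 mesothelial genes 1 was called higher and 2 lower (median -0.18). Msln, mesothelin, fell, with 159, 203 and 238 CPM in tumors and 607 and 767 in the line (-1.80 ± 0.16, adjusted p = 6.99e-05), and Upk1b, an uroplakin, fell as well (-1.66 ± 0.12). Cd200, a surface protein that restrains myeloid cells, was called higher (1.09 ± 0.23), but not without line replicate 2 (0.97, adjusted p = 0.0372). In 12 genes of the epithelial-mesenchymal transition 4 were called higher and 3 lower, with Cdh2, N-cadherin, lower (-1.78 ± 0.13, adjusted p = 3.98e-05), Zeb2 higher (1.61 ± 0.16, adjusted p = 1.11e-04) and Vim not called (-0.48 ± 0.24). Host cells, whose leukocyte genes are given above, add reads to every tumor, and their part in the lower keratin levels was not tested.

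Genes of the cell cycle were lower in tumors. Of 20 mitosis genes 19 were called lower (median -1.75) and all 20 had groups that did not overlap, where 33.9% of all tested genes were lower without overlap. They summed to 1111 to 1425 CPM in tumors and 4208 and 3156 in the line. Plk1, a kinase that drives entry into mitosis, had 16.7, 20.7 and 23.8 CPM in tumors and 134 and 80.3 in the line (-2.39 ± 0.19, adjusted p = 5.20e-05), and Top2a, which untangles chromosomes, had 182, 203 and 237 and 733 and 579 (-1.70 ± 0.11, adjusted p = 2.71e-05). Mki67, the Ki-67 antigen, had 249.8, 276 and 344 and 676 and 508 (-1.06 ± 0.12, adjusted p = 1.87e-04), and without line replicate 1 its fold change passed the p limit but not the limit of size (-0.85, adjusted p = 0.00203). Cenpf was the member not called, at -0.99 ± 0.10 just under the limit of size, and it was past it without TP1 control 3 (-1.04), TP2 control 2 (-1.01) or line replicate 2 (-1.07). Of 20 DNA replication genes 13 were called lower (median -1.08), and 8 with upper quartile scaling, among them Mcm3 of the replicative helicase (-1.36 ± 0.06) and Rrm2, which makes deoxyribonucleotides (-1.55 ± 0.21). All 16 replication histone genes were called lower (median -1.69), with Hist1h4c at 37.4, 44.7 and 49.6 CPM in tumors and 386 and 238 in the line (-2.80 ± 0.17, adjusted p = 2.13e-05). The histone genes are near-identical copies, whose share of the reads is uncertain. In promoters, TTTGAA, the core of the CHR element of mitosis genes, was in 12 of 16 of the mitosis list (75.0%) against 20.2% of all promoters. Leukocyte and fibroblast genes were higher in the same tumors, and their part in the lower levels was not tested.

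Genes of cholesterol synthesis had the lowest median of the 26 lists in the plot of members. Of 19 genes tested 18 were called lower (median -2.40, or 5.27-fold), and all 19 were lower in every tumor than in both line libraries. The list summed to 454 to 683 CPM in tumors and 4375 and 2259 in the line. Fdps, which makes farnesyl diphosphate, had 11.4, 18.1 and 21.4 CPM in tumors and 257 and 114 in the line (-3.43 ± 0.28, adjusted p = 5.36e-05). Idi1 had 13.6, 24.1 and 28.8 and 298 and 135 (-3.27 ± 0.30, adjusted p = 7.62e-05), and Hmgcs1 57.6, 64.3 and 85.1 and 496 and 228 (-2.38 ± 0.26, adjusted p = 1.55e-04). Line replicate 1 had the higher level of the line libraries in each of these 3 genes, and the tumors were below both. The part of the medium or of host cells in these lower levels was not tested. Dhcr7, the last enzyme of the pathway, was not called (-0.98 ± 0.18), though it was called without line replicate 2 (-1.28, adjusted p = 9.89e-04), TP1 control 3 (-1.02) or TP2 control 1 (-1.01).

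Genes of amino acid supply fell as well. Of 20 genes of the ATF4 response and of serine synthesis 12 were called lower and 1 higher (median -1.39), and 2 were called higher without line replicate 2. Asns, asparagine synthetase, had 12.1, 18.3 and 34.2 CPM in tumors and 154 and 140.4 in the line (-2.89 ± 0.35, adjusted p = 2.29e-04), and Phgdh, the first enzyme of serine synthesis, had 69.3, 78.1 and 87.4 and 352 and 323 (-2.11 ± 0.09, adjusted p = 1.19e-05). Psat1 (-2.11 ± 0.18) and Psph (-1.96 ± 0.10), the next enzymes, and Mthfd2 (-2.45 ± 0.32), of mitochondrial folate metabolism, fell with them. The gene called higher was Vldlr, a lipoprotein receptor, with 123, 131 and 461 CPM in tumors and 16.3 and 17.2 in the line (3.39 ± 0.57, adjusted p = 0.00117). Ddit3 (-0.51 ± 0.17) and Atf5 (-0.65 ± 0.22) of this response were not called. Of 12 NRF2 target genes 5 were called lower, such as Txnrd1, thioredoxin reductase (-1.25 ± 0.15), and none higher. In the respiratory chain 6 of 24 nuclear genes were called lower (median -0.82), a count that fell to 1 with upper quartile scaling or library totals, and was 3 without line replicate 1 and 10 without line replicate 2. None of 15 chaperones of the endoplasmic reticulum was called in edgeR's test, 7 had an unadjusted p under 0.05, DESeq2 and limma-voom called 0 as well and 1 was called lower without line replicate 2 (median -0.30), and Hspa5, which encodes BiP, overlapped between tumors and line (-0.26 ± 0.25).

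The medium of the line contained hydrocortisone, which activates the glucocorticoid receptor, and EGF. The part of the medium in the levels below was not tested. Of 11 glucocorticoid-induced genes tested 7 were called lower in tumors and none higher (median -1.63), and 1 was called higher without TP2 control 3. Zbtb16, a transcription factor strongly induced by glucocorticoids, had 1.92, 3.70 and 14.4 CPM in tumors and 103 and 131 in the line (-4.65 ± 0.54, adjusted p = 2.04e-04). Fkbp5, a chaperone that limits the receptor, had 134, 169 and 238 and 547 and 517 (-1.63 ± 0.19, adjusted p = 1.93e-04), and the kinase Sgk1 (-1.80 ± 0.25) and the factor Klf9 (-1.74 ± 0.29) fell too. Lcn2 (0.76 ± 0.53) and Errfi1 (0.10 ± 0.38) were not called. None of 17 genes of the EGF and ERK pathway was called in edgeR's test (median -0.33), 8 had an unadjusted p under 0.05, DESeq2 called 0 and limma-voom 1, 4 were called lower without TP2 control 2, and 1 without TP1 control 3 or without line replicate 2. Dusp6, a phosphatase induced by ERK, had 68.8 to 132 CPM in tumors and 127 and 143 in the line (-0.49 ± 0.18). Of 12 YAP target genes 4 were called lower, with Ccn1 at 27.0, 37.8 and 47.9 CPM in tumors and 178 and 136 in the line (-2.09 ± 0.22, adjusted p = 1.23e-04), while Ccn2 was not called (-0.45 ± 0.40).

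Hypoxia-induced and glycolytic genes were higher, in 11 of 20 genes tested (median 1.65), and none was called lower. Vegfa, the growth factor of vessels, had 342, 394 and 1212 CPM in tumors and 94.0 and 72.9 in the line (2.61 ± 0.54, adjusted p = 0.00318). Bnip3, a mitophagy receptor, had 40.5, 47.8 and 215 and 5.14 and 7.44 (3.43 ± 0.69, adjusted p = 0.00284), and Pfkfb4, a regulator of glycolysis, had 13.6, 16.3 and 17.7 and 3.14 and 2.35 (2.53 ± 0.19, adjusted p = 4.26e-05). In these 3 genes every tumor was above both line libraries, and TP2 control 2 was the highest for Vegfa and Bnip3. The list summed to 4007 to 4624 CPM in 5 tumors, 12488 in TP2 control 2, and 3544 and 3126 in the line. Glycolytic enzymes among its members, such as Ldha (0.34 ± 0.40), Pgk1 (0.45 ± 0.45) and Eno1 (-0.08 ± 0.37), were not called. Car9, carbonic anhydrase IX, was called (1.78 ± 0.47, adjusted p = 0.00986), but not without line replicate 2 (1.29, adjusted p = 0.0741).

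**Figure D4:**
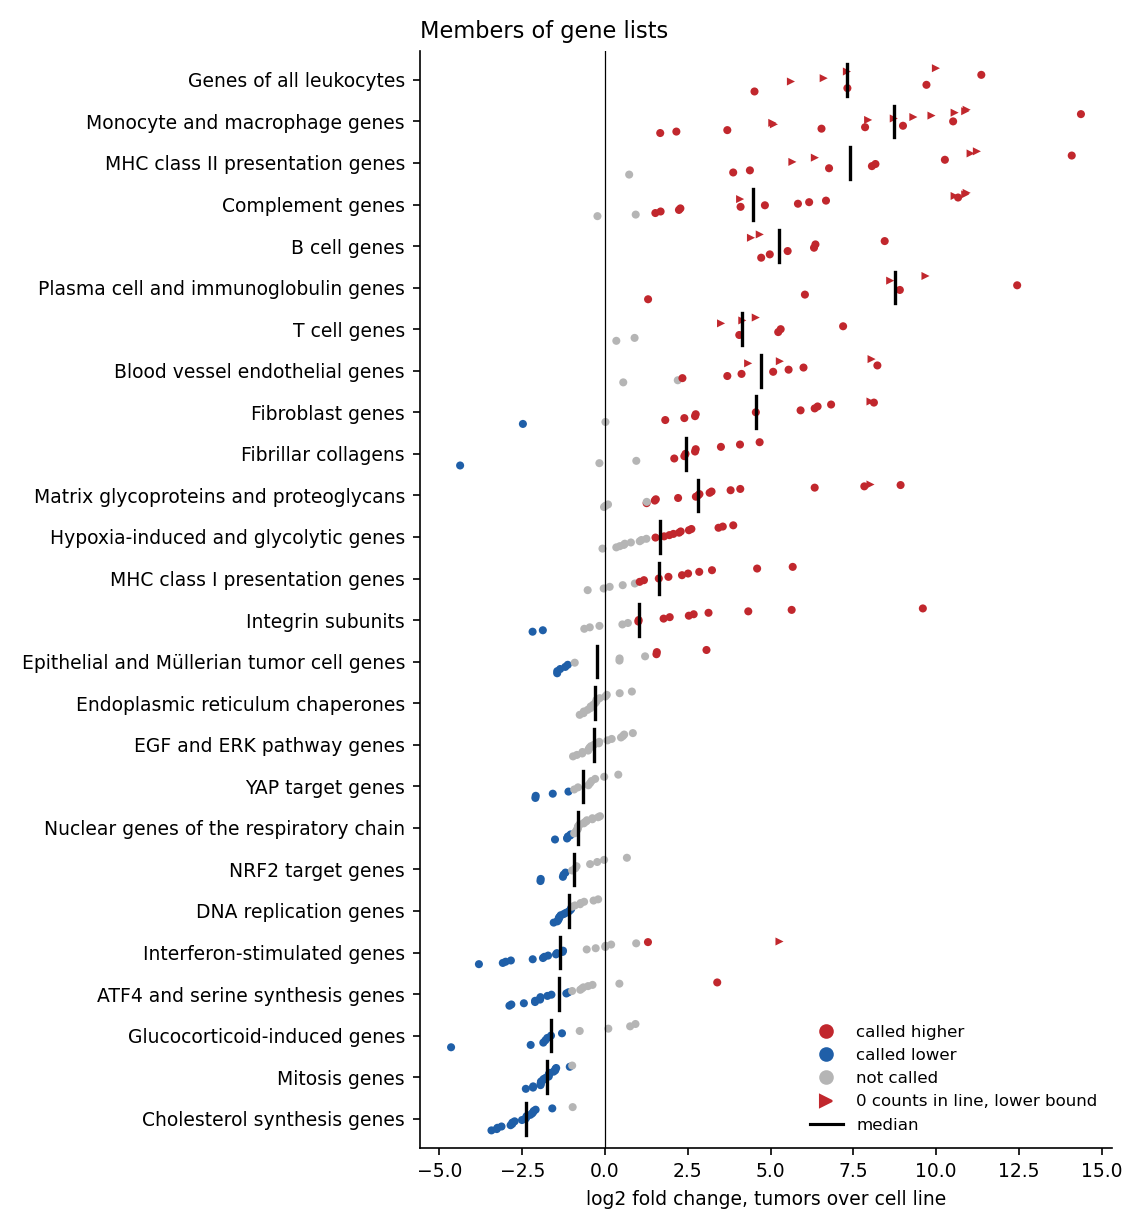
Log2 fold change (tumors over line, x axis) of each tested member of 26 gene lists (rows), red where called higher, blue where called lower and gray where not called, with a bar at the list's median. Red triangles stand for genes with 0 counts in both line libraries, drawn at their lower bound against a floor of 3 counts in each; all tested members of the leukocyte, macrophage, B cell and plasma cell lists are red and 18 of 19 cholesterol genes are blue.

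Trp53, which encodes p53, was low in the line, with 11.5, 15.8 and 18.9 CPM in tumors and 3.68 and 3.11 in the line (2.14 ± 0.25, adjusted p = 2.17e-04). Of its 13 target genes in the list Eda2r was called higher (1.51 ± 0.46), though not without line replicate 1 (1.16, adjusted p = 0.13), and Aen (-1.22 ± 0.16) and Gtse1 (-1.79 ± 0.14) lower. Cdkn1a, which encodes the cell cycle inhibitor p21, had 155 CPM in TP2 control 2 and at most 23.7 in TP2 control 1, against 16.6 and 13.8 in the line, and was not called (1.05 ± 0.85, or 0.14, adjusted p = 0.624 without TP2 control 2). Y-linked genes had 0 counts in all 8 libraries. Xist, the RNA of the inactive X chromosome in female cells, was expressed in the line at 775 and 985 CPM and at 2069, 2842 and 4876 in tumors (1.76 ± 0.29, adjusted p = 0.00106).

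The rule on size named genes outside the lists as well. Among the 15 largest differences toward tumors were Ctss, cathepsin S of antigen-presenting cells, at 121, 215 and 302 CPM against no count in the line (at least 2403-fold higher), F13a1, coagulation factor XIII of macrophages, at 38.1, 47.4 and 99.9 (at least 673-fold), and Col6a5, a type VI collagen chain, at 28.3, 51.9 and 73.2 (at least 605-fold). Arg1, arginase 1, which marks a state of macrophages, had 686 CPM in TP2 control 2 and 52.7 to 139 in the other 5, with no count in the line (at least 2198-fold higher, or 1034-fold without TP2 control 2). By CPM per kilobase, the highest genes among those at 3 counts or fewer in each line library were Lyz2, Hba-a1 and C1qa. In all, 286 genes were at 3 counts or fewer in both line libraries and above 1 CPM in every tumor, of which 251 are protein coding and 146 had no count in the line. The reverse, at 3 counts or fewer in every tumor and above 1 CPM in both line libraries, held for 28 genes.

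The largest differences toward the line included developmental genes. Zbtb16 is given above. Eya2, a transcriptional coactivator, had 0.861, 1.97 and 2.40 CPM in tumors and 39.8 and 43.3 in the line (-4.55 ± 0.30, adjusted p = 2.88e-05), and Tent5b, a poly(A) polymerase, had 1.09, 1.86 and 3.46 and 31.2 and 41.5 (-4.17 ± 0.31, adjusted p = 3.97e-05). Slc25a48, a mitochondrial carrier, had 0 to 0.203 and 10.2 and 15.3 (adjusted p = 2.24e-05), and Tnfsf18, a ligand of the tumor necrosis factor family, had 0.0843 to 0.608 and 13.6 and 8.0 (-5.09 ± 0.49). In all 4 genes every tumor was below both line libraries. Others of these 15, such as mt-Nd3, mt-Co3, mt-Rnr1, Hist2h2aa1 and Rmrp, are mitochondrial genes or have near-identical copies or more than 1 entry, so their counts are uncertain. For example, mt-Co3 had 0 CPM in TP1 controls 1 and 2, 14.9 to 92.1 in the other 4 tumors and 539 and 807 in the line.

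Each time point was also compared with the line, and the comparisons share the 2 line libraries. In TP1 tumors 5850 genes (37.0%) were called and in TP2 tumors 5305 (33.6%). The log2 fold change of Idi1 was -3.08 ± 0.37 at TP1 and -3.46 ± 0.38 at TP2, that of Cd74 8.14 ± 0.82 and 7.99 ± 0.82, and that of Vegfa 2.27 ± 0.56 and 2.95 ± 0.58. All 6 values were past the threshold. In the macrophage list 17 genes were called higher at each time point, in the cholesterol list 18 lower, and in the mitosis list 18 lower at TP1 and 20 at TP2. The pancreatic list had 0 of 11 genes called at TP1 in edgeR's test, with 1 at an unadjusted p under 0.05, 2 called by DESeq2 and 0 by limma-voom, and 11 called higher at TP2, where TP2 control 1 had the highest sum.

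The other model of the series, HGS2, has a C57BL/6 line, and its 7 untreated tumors and 2 line libraries gave a contrast of tumor against line. Its tumors grew in female C57BL/6 mice, and their vehicle doses began later after injection than in 60577. Host strain and tumor age thus differ between the models together with the line, and cannot be told apart in the differences below. A difference between the sequencing runs that is common to both models would drop out of the difference between them, and no value here tests whether it is common. In a fit of 17 libraries, 1058 of 15719 genes (6.73%) differed, 459 (2.92%) with a higher and 599 (3.81%) with a lower tumor over line change in 60577. In that fit 4921 genes (31.3%) were called in 60577, 7.51% of all lower, and 5396 (34.3%) in HGS2, 8.46% lower. The count of differences was 441 without 60577 line replicate 2, 670 without 60577 line replicate 1 and 627 without HGS2 line replicate 1. In HGS2 TP1 control 3 and TP2 control 2 pancreatic genes summed to 82468 and 163280 CPM, against at most 1972 in the other HGS2 tumors. Abundant small non-coding RNAs summed to 183020 and 338930 CPM in the same tumors. The count of differences was 1312 without HGS2 TP1 control 3 and 1106 without HGS2 TP2 control 2. Cholesterol and mitosis genes held 0 calls among these differences in edgeR's test, in DESeq2 and in limma-voom, and 3 of the 20 cholesterol genes tested there, 1 more than in the fit of 8 libraries, and 0 of 20 mitosis genes had an unadjusted p under 0.05 in edgeR's test. In HGS2 18 of the 19 cholesterol genes tested in both fits were called lower with a median of -2.27, against a median of -2.35 in 60577 in the same fit, and 14 of 20 mitosis genes were called lower with a median of -1.39, against -1.70. Idi1, for example, had a log2 fold change of -3.10 ± 0.34 in HGS2. The mitosis list summed to 1181 and 3706 CPM in the HGS2 line libraries and to 337 to 1810 in HGS2 tumors. HGS2 line replicate 1 thus lay within the tumors, and 0 calls for mitosis genes do not show that the models changed alike.

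Hypoxia genes held 5 calls, all with a larger change in 60577, and their median was 1.70 in 60577 and 0.22 in HGS2. The lines themselves differed, with list sums of 3544 and 3126 CPM in the 60577 line and 4522 and 5163 in the HGS2 line. Tumors summed to 4007 to 12488 CPM in 60577 and 2373 to 4353 in HGS2. Bnip3 had 5.14 and 7.44 CPM in the 60577 line and 55.6 and 31.7 in the HGS2 line, while its tumor levels overlapped between the models. The calls thus do not show a higher level in 60577 tumors. The genes called were Bnip3 (difference 3.22 ± 0.72, adjusted p = 0.0152), Pfkl (2.47 ± 0.41), Pdk1 (1.51 ± 0.41), P4ha1 (2.07 ± 0.44) and Aldoa (1.53 ± 0.43). They serve mitophagy, glycolysis, the restraint of pyruvate oxidation and collagen folding. Interferon-stimulated genes held 2 calls, both with a lower change in 60577, Oas3 (-4.77 ± 1.04, adjusted p = 0.013) and Ifit2 (-2.15 ± 0.57, adjusted p = 0.0357), and the median of the list was 0.04 in HGS2 against -1.31 in 60577. The HGS2 line libraries disagreed on this list, which summed to 1704.5 and 327 CPM in them and to 320 to 1649 in HGS2 tumors. The HGS2 median thus averages over unlike line libraries. Trp53 differed too, with a change of 2.20 in 60577 and 4.23 ± 0.47 in HGS2 (difference -2.03, adjusted p = 0.0308), as did Csf1r, whose HGS2 change was 11.30 (difference -3.37, adjusted p = 0.0137). These calls rested on few libraries. When each of the 17 was left out in turn, the call of Pfkl was kept in all 17 fits, that of Oas3 was lost in 1 (without 60577 line replicate 2, adjusted p = 0.0628), and those of P4ha1 and Csf1r in 2, Bnip3 in 3, Trp53 in 5, Pdk1 in 7, Ifit2 in 8 and Aldoa in 12. Line libraries of either model were among those whose removal ended each lost call, with adjusted p up to 0.209 for Pdk1. The plot of both models shows the hypoxia genes above the line of equal change and the cholesterol genes around it.

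**Figure D5:**
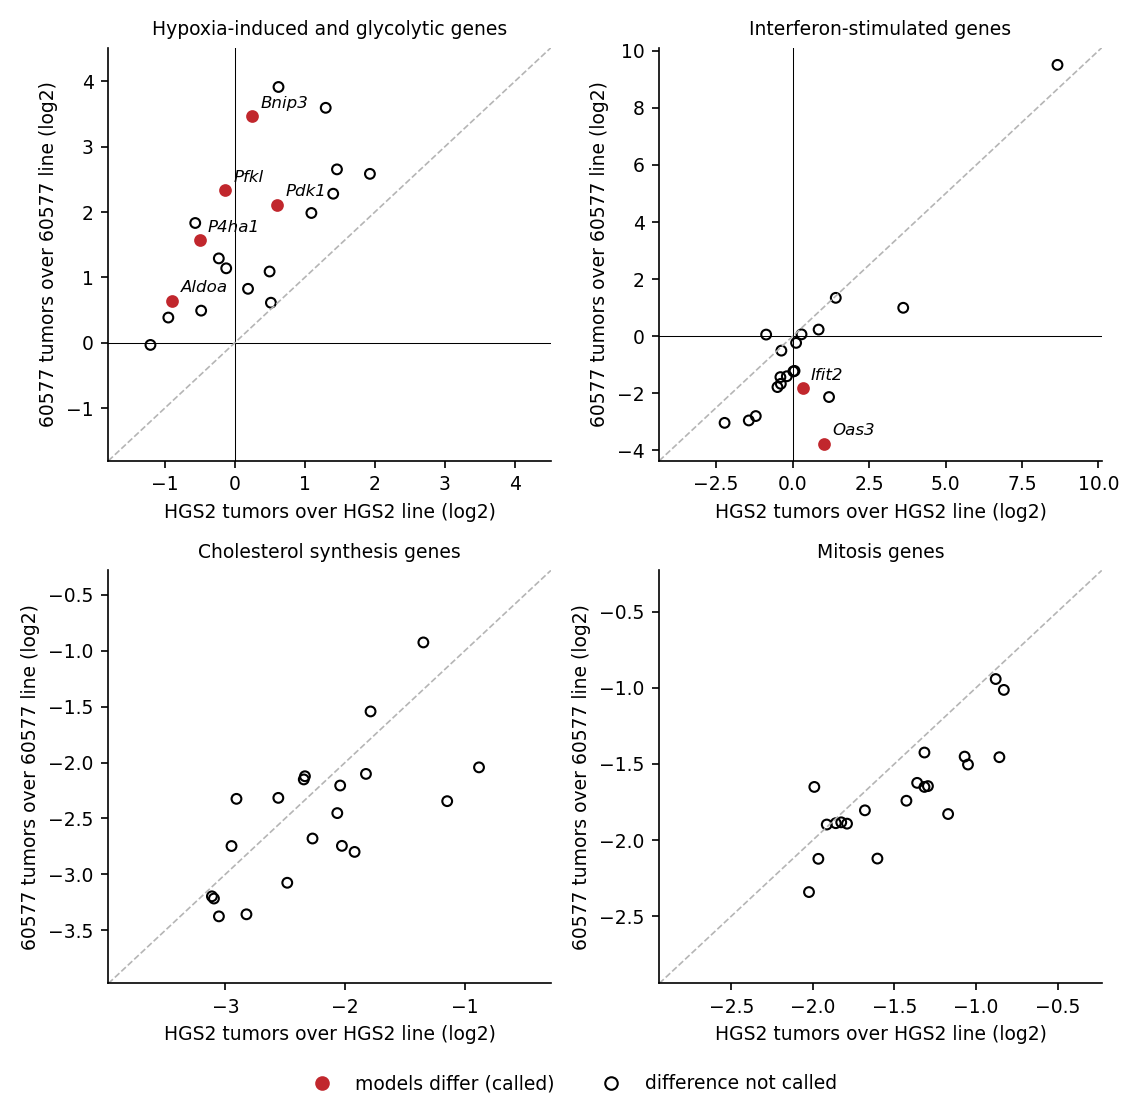
Log2 fold change of tumors over line in HGS2 (x axes) and in 60577 (y axes) from the fit of 17 libraries, for the hypoxia, interferon-stimulated, cholesterol and mitosis lists, with a dashed line of equal change. Filled red points are genes whose change was called different between the models (5 hypoxia genes and 2 interferon-stimulated genes), open points are not called, and no cholesterol or mitosis gene is red.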

How the data were processed

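Total RNA was depleted of ribosomal RNA and sequenced as strand-specific pairs of 150 bases. The authors trimmed reads with Trim Galore 0.6.5, aligned them with STAR 2.7.0f to GRCm38/mm10 and deposited RSEM expected counts for 55487 genes, with tumors and cell lines in separate tables and neither normalized nor filtered. Of these genes 55227 matched GENCODE M21 by identifier, and 38 columns were mapped to 38 samples by name, with 0 left over.

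Here the counts were rounded, and a gene was tested where 25% or more of the 8 libraries reached 1 CPM. edgeR 4.0.16 (R 4.3.3) fitted TP1 tumors, TP2 tumors and the line as 3 groups with TMM factors, and the mean of both tumor groups was set against the line in the quasi-likelihood test with Benjamini-Hochberg adjustment. The difference between models came from 1 fit of 17 libraries. DESeq2 1.42.0 and limma 3.58.1 (voom) were alternatives. On simulated data for this comparison, with 15446 genes, the edgeR test recovered 83% of 100 genes changed by 1.5 on the log2 scale and 98% of 100 changed by 3, with 14 false calls. Only these 200 well-expressed genes were changed, as many up as down, and no difference between runs was added. In the real data 35.6% of genes were called, so the simulation does not give their rate of false calls.

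The samples, the 49 gene lists and the tests were chosen with earlier results of these data known. Named genes are list members, the 15 largest called differences in each direction with a mean of at least 10 CPM and no overlap, the 15 highest by CPM per kilobase at 3 counts or fewer in the line, and the 10 largest differences between models, without predicted genes. Genes with 0 counts in the line are given as a fold over a floor of 3 counts in each line library. Some genes of these lists are not reported here by name. Figures were drawn with matplotlib 3.10.9.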

Additional observations from a re-analysis of the deposited data

Results flagged for a closer look

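In 10 of 48 gene lists, 1 of the 6 tumors lay far from the rest in its summed CPM, by Dixon's test at the 95% critical value for 6 samples (0.625). Chance flags about 1 in 20 groups. In 7 of the 10 lists the tumor apart was TP2 control 2. Its hypoxia genes summed to 12488 CPM, where the next tumor had 4624. Its genes of the epithelial-mesenchymal transition summed to 16504 CPM (next 10110), its ATF4 and serine synthesis genes to 1723 (next 1116), its EGF and ERK genes to 1417 (next 889) and its NRF2 target genes to 872 (next 652). Trp53 and its target genes summed to 504 CPM there (next 357) and neutrophil genes to 97.8 (next 40.1). A sum can rest on few genes. Cdkn1a, of the Trp53 list, had 155 CPM in TP2 control 2 and at most 23.7 in the other tumors. Fn1 made up most of the sum for the epithelial-mesenchymal transition. TP2 control 1 stood apart in pancreatic acinar genes, at 2078 CPM (next 364), and in abundant small non-coding RNAs, at 159630.0 CPM (next 58586). In TP1 control 1, Xist was at 4876 CPM (next 3077).

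The change from line to tumor differed between the models in 1058 genes in edgeR's test. The differences with the largest size among genes with a mean of at least 10 CPM were mostly toward HGS2, as the change in 60577 minus that in HGS2. Dsg2, a desmosome cadherin, differed by -9.99, Enpp2, which makes lysophosphatidic acid, by -9.91, Blnk, an adaptor of B cell signaling, by -9.13 and Rac2, a GTPase of blood cells, by -8.84. Thy1, a fibroblast and T cell surface protein, differed by -8.42, the sterol exporter Abcg1 by -8.41, the ligand Wnt10a by -8.04 and the leukocyte actin-bundling protein Lcp1 by -7.72. Cntn2, a neural adhesion protein, and Rian, an imprinted non-coding RNA, differed in the other direction, by 8.12 and 8.10. When each of the 17 libraries was left out in turn, the calls of Rac2 and Rian were lost in 3 fits each and the other 8 calls in 0. Several of these genes were at or near 0 in a line, where the size depends on the fit. Enpp2, Rac2 and Abcg1 had 0 CPM in both HGS2 line libraries and Rian in both of 60577. Dsg2 had 178 and 220.4 CPM in the 60577 line and 0.103 and 0.0559 in the HGS2 line, and Wnt10a 153 and 153 against 0.138 and 0.0559, while the tumors of the models lay closer (Dsg2 264 to 309 CPM in 60577 and 8.06 to 180.0 in HGS2).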

How the results depend on the processing

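The count of 5624 genes called was between 3808 and 7357 under the 15 other settings that kept every library or left out both TP2 controls 1 and 2 or the mitochondrial, histone and small RNA genes (the last 2 settings were chosen after seeing the data). The 1525 genes called lower fell to 901 with upper quartile scaling, 1005 with library totals and 742 when the test itself required a log2 fold change of 1 (glmTreat, 80.5% of calls higher). Leaving out 1 library gave 4863 to 5853 calls, 3700 to 4219 higher and 1163 to 1672 lower, 5102 to 5955 at TP1, 4441 to 5613 at TP2 and 325 to 381 list members called, against 365 with all libraries. The 286 genes at 3 counts or fewer in the line fell to 96 at a limit of 5 CPM and 146 at 0 counts, by construction. The difference between models (1058) was 441 (without 60577 line replicate 2) to 1312 with 1 library left out, 683 with the replicate block and 1571 with DESeq2's Wald test. The cause of the other changes was not tested. With the replicate block 5342 genes were called in tumors against line. Samples of the same number did not deviate together (correlations of -0.32 to 0.06), so the numbers do not pair them. Of the named genes fitted, 0 reversed under any of 23 settings, but a reversal needs a call in the other direction. Of 603 fitted with glmTreat, 83 lost and 0 gained a call. With limma-voom 47 of 603 lost a call and 5 gained one.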

Other observations

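Of 28 genes at 3 counts or fewer in every tumor and above 1 CPM in both line libraries, several belong to families of near-identical copies that are expressed in the early embryo, so their counts are uncertain. Zscan4c had a mean of 4.32 CPM in the line, Zscan4-ps2 2.72, Zscan4d 1.75, Usp17lc 1.66, Usp17le 1.54 and Pramef25 1.38. These were named after their values were seen. Of 5 lymphatic endothelial genes tested, Ccl21a was called higher in tumors and Pdpn (-1.02 ± 0.12) and Mmrn1 (-3.89 ± 0.65) lower, and the list summed to 345 to 434 CPM in tumors and 722 and 839 in the line. Without line replicate 2, 0 of the 3 calls were left, and Mmrn1 was then too low for the test. Of 3 Schwann cell genes tested, 2 were called higher, among them Ncam1 (1.39 ± 0.34), whose call was lost without line replicate 2 (0.86, adjusted p = 0.011), which left 1 call, and 0 were called with glmTreat. Of 13 mitochondrially encoded genes 2 were called higher, mt-Nd4l (2.16 ± 0.18) and mt-Nd6 (1.65 ± 0.17), and 3 lower. Genes were called higher in 32.4% of the 3159 genes with the lowest GC content and in 24.8% of the 3158 with the highest, and in 31.9% of the 3159 shortest and 20.1% of the 3157 longest genes.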
